A study of Mus musculus with 9 samples.

Results

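The phagocyte NADPH oxidase was followed through 5 of its subunit genes, Cybb, Cyba, Ncf1, Ncf4 and Rac2, chosen by gene symbol from a table of 26146 genes. All 5 were found, and all 5 passed the filter on low values that 11536 genes passed (FPKM, fragments scaled to gene length and library size, of 1 or more in no fewer than 3 libraries). Poly(A) RNA came from RAW264.7 cells, an established mouse macrophage line, in 9 libraries of 3 per group. The Normal group has no treatment named, and the other groups received lipopolysaccharide (LPS), either alone or with an extract of Traditional Chinese Medicine. No plant, dose or time is named in the labels used here. The labels also conflict over which treated group is which: for titles reading LPS the description gives columns named ET and libraries named M, and for titles reading LPS+Extract it gives columns named M and libraries named ET. Groups are therefore called ET and M after their columns. Under the column names M received the extract, and under the library names ET did. Levels of expression were not used to decide between these readings.

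As background, the oxidase moves electrons from NADPH across a membrane to oxygen and so makes superoxide, which phagocytes use against microbes. Its membrane part is flavocytochrome b558, made of the catalytic chain gp91phox (NOX2, from Cybb) and its partner p22phox (from Cyba). In resting cells cytosolic subunits, among them the organizer p47phox (Ncf1) and p40phox (Ncf4), which binds a phosphoinositide of phagosomes, wait in the cytosol. They join the flavocytochrome together with a Rac GTPase, Rac2 in blood cells and also Rac1 in macrophages. Transcript levels do not report this assembly or the enzyme's activity.

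Total counts lay between 55039858 and 76242718 per library. Of 9 macrophage markers 8 had FPKM of at least 1 in every library, and the exception was the efferocytosis receptor Mertk (mean FPKM 0 in Normal and ET and 0.0099 in M). Granulocytes also carry the oxidase, and the 6 of their markers that the table lists summed to an FPKM of 0.172 to 0.321 (Normal), 37.9 to 47.0 (ET) and 41.9 to 47.7 (M). Nearly all of it was S100a8, with a mean of 42.3 in ET and 44.5 in M, while the defining granule genes Mpo and Elane had mean FPKM of at most 0.0328 in every group. Summed markers of further cell types were at low levels and also higher in treated libraries, with most of each rise in 1 gene. Fibroblast markers summed to an FPKM of 0.0273 to 0.0731 (Normal), 3.07 to 3.57 (ET) and 4.13 to 6.13 (M), most of it Lum (mean 0, 3.04 and 4.85). Epithelial and endothelial markers summed to 0.768 to 0.953, 2.78 to 3.24 and 3.20 to 3.55, erythroid markers to 0 to 0.177, 1.04 to 1.47 and 1.12 to 1.9, and lymphocyte markers to 0 to 0.268, 0.596 to 1.38 and 0.562 to 0.673. Most of these rises came from Pecam1 (mean 0.811, 2.69 and 3.11), Hba-a1 (0.0158, 1.11 and 1.10) and Cd79a (0.149, 0.958 and 0.602). Other listed genes were low and went both ways, with Dcn up (0, 0.237 and 0.468) and Col3a1 down (0.0215, 0.00988 and 0.0118). The part of these markers in the results was not tested. In a principal component analysis of the tested genes ET replicate 3 stood apart on the component that separated ET from M (-5.48, against -12.7 and -12.6 for the other ET libraries and 9.45 to 10.4 for M). Log2 changes and calls between M and ET are given with and without it.

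The 5 subunits did not move as a unit in treated cells. Cybb and Ncf1 fell by between 1.86-fold and 2.53-fold, Cyba and Rac2 rose by between 1.28-fold and 1.40-fold, and Ncf4 was called, marginally lower, in M only. In ET against Normal, 2 members were called higher, where 35.0% of all tested genes were, and 2 lower, where 35.2% were (edgeR quasi-likelihood test, Benjamini-Hochberg adjusted p under 0.05). In M against Normal 2 were called higher, against 35.5% of all genes, and 3 lower, against 34.5%. The libraries of ET and Normal did not overlap for 5 of 5 members, as for 73.2% of tested genes, and those of M and Normal for 4 of 5, as for 74.8%. The members' median log2 change was -0.08 in ET and -0.17 in M, beside -0.02 and -0.0073 over all tested genes. With only 5 members, these counts are too few to set the members apart from all tested genes. The comparisons with Normal share the same 3 control libraries. In bulk RNA, fewer cells of a type and less RNA per cell cannot be told apart.

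Cybb, on chromosome X from 9435252 to 9487771 on the minus strand (ENSMUSG00000015340), encodes the chain that carries the flavin and haem groups. Its FPKM was 114, 109 and 114 in the Normal libraries, 40.5, 41.6 and 44.3 in ET, and 54.2, 48.7 and 47.7 in M. Every treated library lay below every Normal library, and every M library above every ET library. The means were 112 ± 2.59, 42.1 ± 1.98 and 50.2 ± 3.53 (SD, n = 3). Cybb was 2.53-fold lower in ET (log2 change -1.34 ± 0.05 SE, edgeR adjusted p = 1.68e-10). It was 2.1-fold lower in M (-1.07 ± 0.05, edgeR adjusted p = 1.33e-09). This was the largest change of the 5 members in either comparison.

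Cyba, on chromosome 8 from 122424776 to 122432930 on the minus strand (ENSMUSG00000006519), encodes p22phox, which keeps gp91phox stable and docks p47phox. Its FPKM was 142, 138 and 144 in Normal, 198, 190.4 and 177 in ET, and 170.4, 172 and 168 in M. All 6 treated libraries exceeded the 3 Normal libraries, the reverse of its partner chain Cybb. The means were 141 ± 2.66, 188 ± 10.2 and 170.2 ± 1.61 (SD, n = 3). The rise was 1.40-fold in ET (log2 change 0.49 ± 0.04 SE, edgeR adjusted p = 3.15e-07) and 1.28-fold in M (0.35 ± 0.04, edgeR adjusted p = 6.85e-06).

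Ncf1, on chromosome 5 from 134220053 to 134229625 on the minus strand (ENSMUSG00000015950), encodes the organizer p47phox. Its FPKM was 169, 179 and 182 in Normal, 79.7, 84.7 and 81.1 in ET, and 86.0, 90.8 and 91.5 in M. The treated libraries formed a range well under that of Normal, with all M values above all ET values. The means were 177 ± 6.48, 81.8 ± 2.62 and 89.4 ± 3.00 (SD, n = 3). Ncf1 was 2.05-fold lower in ET (log2 change -1.03 ± 0.04 SE, edgeR adjusted p = 8.13e-11) and 1.86-fold lower in M (-0.89 ± 0.04, edgeR adjusted p = 3.20e-10). The plus-strand gene Gtf2ird2 shares 4303 bases with Ncf1, and although the libraries mark strand (dUTP), whether counting used it is not given. Counts of Gtf2ird2 were 1671 to 2136 (Normal), 662 to 733 (ET) and 716 to 849 (M), where Ncf1 had 40476 to 53685, 18234 to 19672 and 20462 to 21191.

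Ncf4, on chromosome 15 from 78244801 to 78262580 on the plus strand (ENSMUSG00000071715), encodes p40phox. Its FPKM was 62.0, 62.0 and 63.9 in Normal, 56.0, 57.8 and 55.0 in ET, and 51.4, 58.4 and 47.4 in M. Treated libraries were lower in FPKM without exception, but M replicates 2 and 3 differed from each other by more than ET did from Normal. The means were 62.6 ± 1.12, 56.3 ± 1.41 and 52.4 ± 5.58 (SD, n = 3). ET was not called different (log2 change -0.08 ± 0.06 SE, edgeR adjusted p = 0.274). M was called lower by a small margin (-0.17 ± 0.06, edgeR adjusted p = 0.0262), and on the scaled counts of the test its libraries overlapped those of Normal. The M call ended without Normal replicate 1 or 3 or M replicate 1 or 3, with edgeR adjusted p = 0.0572, 0.0784, 0.0728 and 0.140, and without M replicate 3 the log2 change was -0.095.

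Rac2, on chromosome 15 from 78559167 to 78572783 on the minus strand (ENSMUSG00000033220), encodes the Rac GTPase of blood cells, which joins the complex in its GTP form. Its FPKM was 208, 204 and 209 in Normal, 254, 256 and 243 in ET, and 249, 257 and 248 in M. Treated libraries all lay above Normal, and the ranges of ET and M overlapped. The means were 207 ± 2.97, 251 ± 7.23 and 251 ± 4.76 (SD, n = 3). The rise was 1.28-fold in ET (log2 change 0.35 ± 0.03 SE, edgeR adjusted p = 4.48e-07) and 1.29-fold in M (0.37 ± 0.03, edgeR adjusted p = 3.12e-07).

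**Figure D1:**
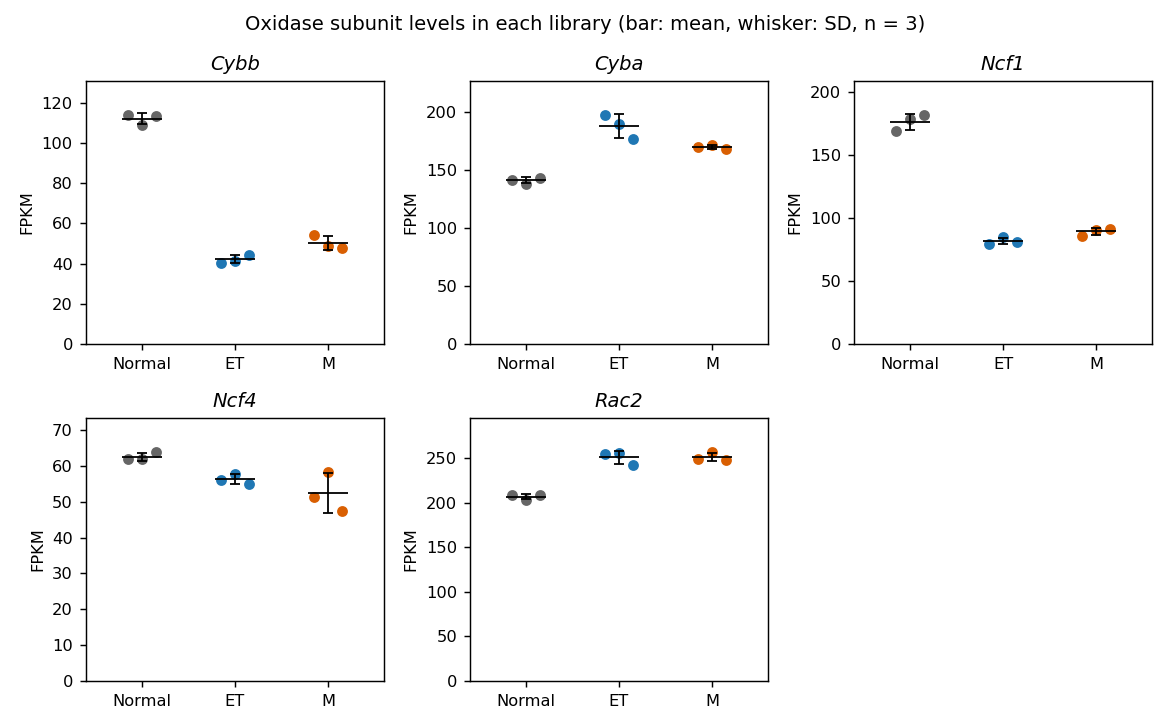
FPKM (y axis, from 0) of the 5 members in each library (points), by group, with mean (bar) and SD (whisker), n = 3. Cybb and Ncf1 are lower in all treated libraries, Cyba and Rac2 are higher in all of them, and the Ncf4 libraries of M spread from 47.4 to 58.4.

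Because FPKM is per length, levels were ordered between genes, and the order changed. This order, the ranks and the ratios below depend on the length used for each gene. Whether that length matches the transcripts of these cells was not tested. In Normal it ran Rac2, Ncf1, Cyba, Cybb and Ncf4, with no overlap between the libraries of neighbours. In ET it ran Rac2, Cyba, Ncf1, Ncf4 and Cybb, again without overlap, so that the catalytic chain went from the fourth place to the lowest. M had the same order as ET, but there the libraries of Ncf4 and Cybb overlapped, so their order was not resolved. Among the 11536 tested genes, Cybb ranked 364 by mean FPKM in Normal, 1216 in ET and 1004 in M. Rac2 ranked 203, 164 and 161, among the most abundant transcripts of these cells. The 5 members took 0.235% to 0.241% of all counts (Normal), 0.172% to 0.177% (ET) and 0.177% to 0.182% (M).

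Ratios within a library describe the balance between partners, and are given without a test. The Cyba to Cybb ratio of FPKM, for the partners of the flavocytochrome, was 1.26 ± 0.01 in Normal, 4.49 ± 0.446 in ET and 3.40 ± 0.223 in M (SD, n = 3). ET ran from 4.0 to 4.88 and M from 3.14 to 3.53, without overlap. The Ncf4 to Ncf1 ratio, for p40phox and p47phox, was 0.355 ± 0.0102, 0.688 ± 0.0132 and 0.586 ± 0.0636. Rac2 made up 72.6% ± 0.306 of the summed FPKM of Rac1 and Rac2 in Normal, 85.2% ± 0.0828 in ET and 85.2% ± 0.0367 in M, and how reads common to these similar genes were assigned is not stated. The plus-strand gene Daglb also overlaps Rac1, and whether counting used the strand is not given. Daglb had 1911 to 5604 counts per library, where Rac1 had 11678 to 28472. Each gene's ratio of count to FPKM was the same in all libraries within 1.01 times after scaling to total counts, so the FPKM of each gene rested on a single length.

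**Figure D2:**
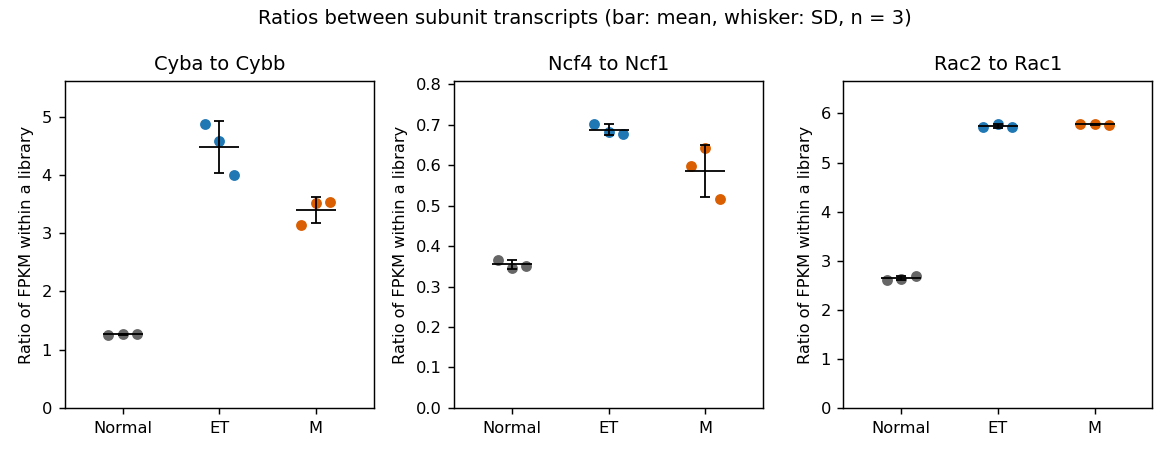
Ratio of FPKM within each library (points; y axis from 0) for Cyba to Cybb, Ncf4 to Ncf1 and Rac2 to Rac1, with mean (bar) and SD (whisker), n = 3 per group. All 3 ratios are higher in every treated library than in every Normal library, and for Cyba to Cybb the ET libraries lie above the M libraries.

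The promoters of the members whose levels moved in opposite directions are shown because Cybb and Ncf1 fell while Cyba rose. The windows are from RefSeq on GRCm38.p6, 250 bases before to 50 after the annotated start, minus strand, 5′ to 3′; 3 of 5 members matched the table, and Ncf4 and Rac2 did not. Start and end of 90.1% of the genes in the deposited table, the members included, equalled those of GENCODE M21 on the same GRCm38 assembly. For Cybb the gene in the deposited table begins further upstream than the RefSeq start. The windows are chrX:9469275-9469574 for Cybb, chr5:134229576-134229875 for Ncf1 and chr8:122432891-122433190 for Cyba. Capitals mark, on either strand, GAAA followed by any 2 bases and GAAA (the letters of an interferon-stimulated response element), GAGGAA (the core bound by the myeloid factor PU.1) and GGGCGG (the GC box).
Cybb: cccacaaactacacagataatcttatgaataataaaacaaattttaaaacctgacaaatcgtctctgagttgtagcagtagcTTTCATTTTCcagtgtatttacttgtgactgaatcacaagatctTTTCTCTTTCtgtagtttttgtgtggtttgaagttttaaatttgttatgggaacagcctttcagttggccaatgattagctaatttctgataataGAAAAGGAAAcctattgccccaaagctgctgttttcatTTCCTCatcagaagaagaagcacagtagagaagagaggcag
Ncf1: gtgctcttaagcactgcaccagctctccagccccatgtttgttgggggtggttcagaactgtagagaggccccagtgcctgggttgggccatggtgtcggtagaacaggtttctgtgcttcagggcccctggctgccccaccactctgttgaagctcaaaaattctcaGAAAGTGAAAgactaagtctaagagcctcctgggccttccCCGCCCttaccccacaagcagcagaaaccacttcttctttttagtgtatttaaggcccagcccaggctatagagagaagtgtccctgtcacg
Cyba: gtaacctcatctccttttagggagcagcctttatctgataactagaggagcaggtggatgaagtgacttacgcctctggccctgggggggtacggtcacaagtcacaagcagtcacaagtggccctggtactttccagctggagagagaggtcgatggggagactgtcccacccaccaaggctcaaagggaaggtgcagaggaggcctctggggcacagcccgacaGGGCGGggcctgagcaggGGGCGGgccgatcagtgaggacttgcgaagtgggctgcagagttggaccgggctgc

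The interferon-type letters occurred 3 times in the Cybb window, starting at -168, -124 and -29 from the start site, once in Ncf1 at -82, and not in Cyba. Of 32851 windows of 300 bases in the table, 3.44% held them. The PU.1 core occurred once, in Cybb from 10 to 15 after the start, and in 28.3% of all windows. The GC box occurred 2 times in Cyba and 1 time in Ncf1, and in 35.7% of all windows. CCAAT occurred only in the Cybb window among the 3, at -56, and in 37.4% of all windows. The NF-kB pattern of GGG, any 5 bases and CC, present in 50.8% of windows, was in all 3, with 1 match in Cybb, 5 in Ncf1 and 5 in Cyba, and overlapped the GC boxes of Cyba and Ncf1. These are matches of letters, and no binding was measured.

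M was set against ET, which asks what the extract added to LPS, with M as the extract group under the column names and ET as the extract group under the library names. Cybb was higher in M by 1.20-fold (log2 change 0.26 ± 0.05 SE, edgeR adjusted p = 0.00856) and Ncf1 by 1.10-fold (0.14 ± 0.04, edgeR adjusted p = 0.0387). Both members called lower in ET against Normal were less so in M. Thus 2 of 5 members were called higher, against 4.97% of all genes, and none lower, against 4.12%. The libraries did not overlap for 3 of 5 members, Cybb, Cyba and Ncf1, as for 28.7% of tested genes. The members' median log2 change was 0.01, beside 0.0029 over all tested genes. Cyba was not called (-0.14 ± 0.04, edgeR adjusted p = 0.0622), nor Ncf4 (-0.09 ± 0.06, edgeR adjusted p = 0.390), nor Rac2 (0.01 ± 0.03, edgeR adjusted p = 0.836), whose sign turned in 3 of 18 other settings.

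The Cybb call held under all 18 other settings, with log2 changes from 0.20 to 0.30 and adjusted p from 2.58e-05 (DESeq2) to 0.0427 (edgeR). The Ncf1 call held in 4 of 18, with edgeR, DESeq2 or limma adjusted p from 0.0146 to 0.174, so it lies at the edge of the threshold. Without ET replicate 3, Cybb gave 0.30 (edgeR adjusted p = 0.00271), Ncf1 0.13 (edgeR adjusted p = 0.0544), Cyba -0.18 (edgeR adjusted p = 0.00651), Ncf4 -0.11 (edgeR adjusted p = 0.301) and Rac2 -0.01 (edgeR adjusted p = 0.797). Leaving out that library thus ended the Ncf1 call and brought one for Cyba, and over all genes it brought 1121 higher and 707 lower calls in place of 573 and 475. The part of that library in the Ncf1 and Cyba results was not tested further.

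**Figure D3:**
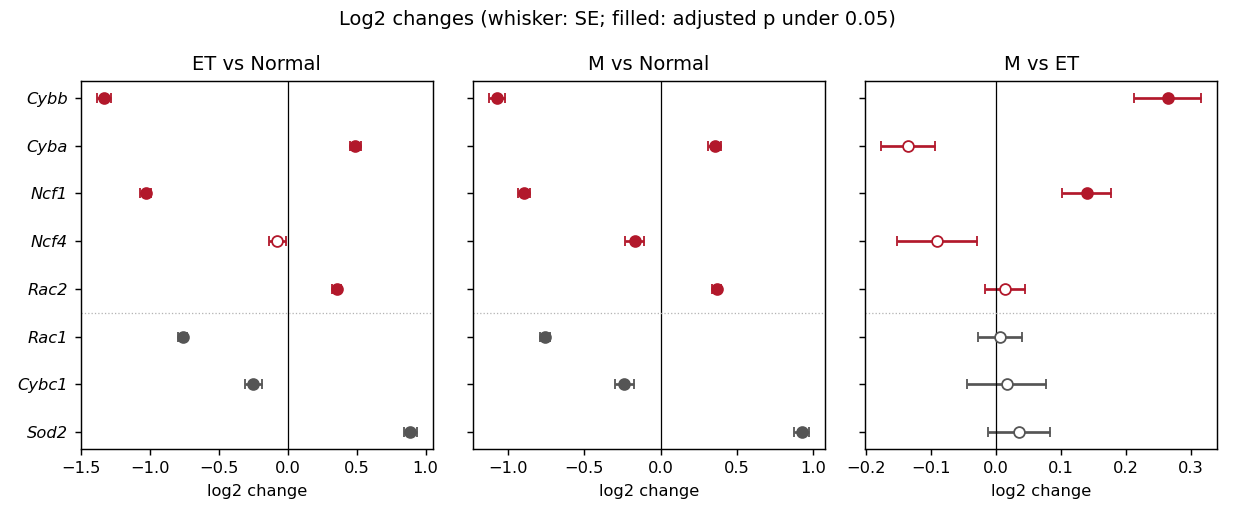
Log2 change (x axis; the scale differs between panels) of the 5 members and 3 companion genes in each comparison, with SE (whisker); filled points have an adjusted p under 0.05. Cybb and Ncf1 fall and Cyba and Rac2 rise against Normal in both treated groups, and in M against ET Cybb and Ncf1 are higher.

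**Figure D4:**
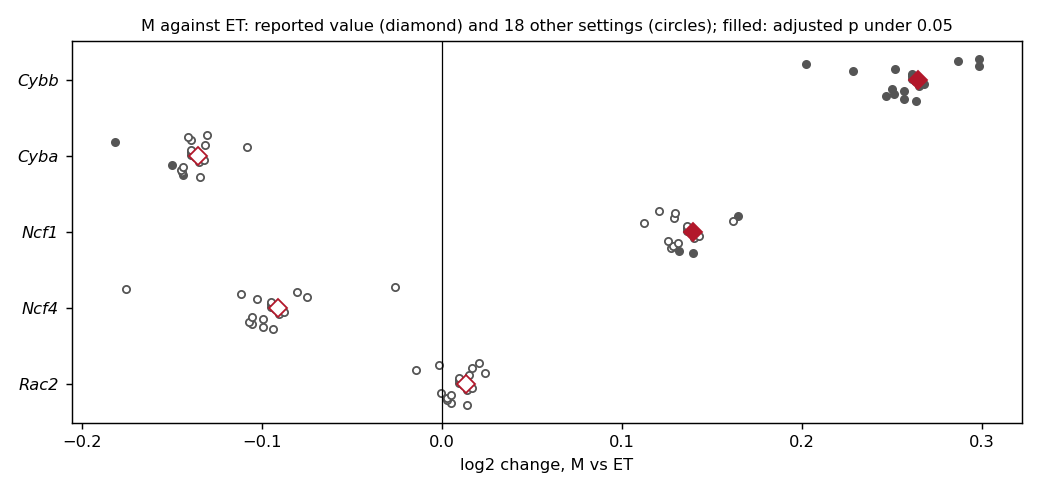
Log2 change of M against ET (x axis) for the 5 members as reported (diamonds) and under 18 other settings (circles); filled symbols have an adjusted p under 0.05. Cybb is filled throughout, Ncf1 is filled in 4 of 18 circles, and Rac2 lies on both sides of 0.

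Beside the members, 3 companion genes were named in every comparison. Rac1, the ubiquitous Rac, fell from 78.2 ± 1.32 FPKM to 43.7 ± 1.11 in ET and 43.5 ± 0.729 in M (SD, n = 3; log2 change -0.76 ± 0.03 SE in both), the reverse of Rac2. The limit from the overlap of Rac1 with Daglb, given above, holds for this fall too. Cybc1, whose product Eros is a chaperone of the flavocytochrome, fell from 13.3 ± 0.835 FPKM to 10.6 ± 0.270 and 10.7 ± 0.611 (edgeR adjusted p = 0.00248 and 0.00385). Sod2, the mitochondrial superoxide dismutase, rose from 10.3 ± 0.297 FPKM to 18.1 ± 0.142 and 18.4 ± 1.23.

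The oxidases Nox1 (mean FPKM up to 0.135) and Nox3 (up to 0.103) and the organizer Noxo1 (up to 0.207) stayed under 1 on average in every group and were not tested. The counts of called genes in the lists that follow are to be read against all tested genes, of which 35.0% were higher and 35.2% lower in ET, 35.5% and 34.5% in M, and 4.97% higher and 4.12% lower in M than in ET. Of 8 genes of flavocytochrome maturation, haem supply and membrane partners, 7 were tested, with 2 higher and 4 lower both in ET and in M (median log2 change -0.18 and -0.21). Alas1, the first enzyme of haem synthesis, rose from 6.30 ± 0.227 FPKM to 14.2 ± 0.945 in ET and 11.1 ± 0.487 in M (SD, n = 3), and was lower in M than in ET (log2 change -0.34, edgeR adjusted p = 0.00235; -0.40 and 0.000336 without ET replicate 3). Rap1b, a small GTPase, rose (log2 change 0.72 in ET and 0.70 in M), while its relative Rap1a, which copurifies with flavocytochrome b558, fell (-0.44 and -0.21). Between M and ET, Rap1a was not called (0.22, edgeR adjusted p = 0.0855), but it was higher in M without ET replicate 3 (0.32, edgeR adjusted p = 0.00284). Nrros, which limits the amount of gp91phox in the endoplasmic reticulum, fell as well, from 49.3 ± 1.89 FPKM to 38.0 ± 1.11 and 36.3 ± 0.943.

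Among Rac regulators and activating kinases, called genes went in both directions, as they did over all tested genes. Of 16 Rac GTPases and regulators, 15 were tested, with 7 higher and 6 lower in ET and 7 higher and 5 lower in M (median log2 change 0.09 and 0.07). Tiam1, a Rac exchange factor, rose from 0.174 ± 0.0524 FPKM to 1.39 ± 0.0831 in ET and 1.10 ± 0.0424 in M, and passed the filter only through the treated groups. Abr, a Rac GTPase-activating protein, rose (log2 change 0.84 and 0.73), and Rac3 was lower at a low level (1.40, 0.646 and 0.702 FPKM in Normal, ET and M). Prex1, an exchange factor for Rac2, fell (-0.56 and -0.38), and was higher in M than in ET (0.18, edgeR adjusted p = 0.00473; 0.16 and 0.00787 without ET replicate 3). Of 16 kinases and lipid enzymes of activation, 14 were tested, with 6 higher and 6 lower in ET and 5 higher and 6 lower in M (median log2 change -0.08 and -0.10). The tyrosine kinase Syk, which couples Fc receptors to the oxidase, rose from 12.2 ± 0.264 FPKM to 31.1 ± 0.467 and 32.7 ± 0.954. The protein kinase C genes went opposite ways, with Prkca up (1.66 and 1.82) and Prkcd down (-0.64 and -0.60). Pak1 fell too (-0.65 and -0.73), and 0 of the 14 were called between M and ET, with or without ET replicate 3, from which nothing can be read given the low share of all genes called there.

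The list of receptors that start an oxidative burst included the largest rises among these lists, from low levels in Normal, and also falls. Of 13 listed, 12 were tested, with 8 higher and 2 lower in ET and 8 higher and 3 lower in M (median log2 change 1.14 and 1.05, beside -0.02 and -0.0073 over all tested genes). The median was the same with Fpr1, which had 0 counts in Normal, set to its lower bound. Fcgr4, an activating Fc receptor, went from 0.747 ± 0.287 FPKM to 17.5 ± 1.40 in ET and 22.3 ± 1.03 in M (SD, n = 3). The inhibitory Fc receptor Fcgr2b is counted in the list, although the list's name does not describe it. Fcgr2b went from 0.791 ± 0.0846 to 10.6 ± 0.305 and 8.66 ± 0.440, and was lower in M than in ET (log2 change -0.28, edgeR adjusted p = 0.0237; -0.28 and 0.0285 without ET replicate 3). C5ar1, the receptor for complement C5a, rose from 1.96 ± 0.475 to 20.8 ± 0.710 and 21.5 ± 0.810. The formyl peptide receptor Fpr1 reached 2.07 ± 0.322 and 2.18 ± 0.206 FPKM. Clec7a and Tlr2, the 2 called lower in ET, were lower in M too, and were added after their values were seen. Clec7a went from 2.25 ± 0.0863 FPKM to 0.468 ± 0.113 and 0.698 ± 0.203. Tlr2 went from 99.3 ± 2.95 to 56.2 ± 1.63 and 52.7 ± 1.81. Fcgr1 was called lower in M only (log2 change -0.11). Fcgr4, Fcgr2b and Fpr1 were under 1 FPKM on average in Normal and passed the filter through the treated groups, so such genes could enter these counts only as higher. Over the 9 receptors with a mean of at least 1 in Normal, a restriction added after the data were seen, 5 were higher and 2 lower in ET (median log2 change 0.63), and 5 higher and 3 lower in M (median 0.24). Over all 10802 tested genes with such a level, 31.5% were higher and 37.6% lower in ET (median -0.06), and 32.1% and 36.8% in M (median -0.04).

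Enzymes that remove superoxide and peroxide included genes that differed between M and ET. Of 10 tested (of 11 listed), 5 were higher and 1 lower in ET, and 3 higher and 4 lower in M (median log2 change 0.09 and -0.06), with 4 called lower in M than in ET, with or without ET replicate 3. Without that library 7 were higher and 1 lower in ET against Normal, where 34.6% and 34.2% of all tested genes were. Between M and ET, 6.13% of all tested genes were lower in M without that library, against 4.12% with it. Catalase (Cat) was at 47.1 ± 1.48 FPKM in Normal, rose to 61.6 ± 2.64 in ET and fell to 37.2 ± 1.73 in M (SD, n = 3; M against ET log2 change -0.72, edgeR adjusted p = 2.31e-06, and -0.75 and 2.22e-06 without ET replicate 3). Peroxiredoxin Prdx1 was at 209.9 ± 4.62, 339.7 ± 19.6 and 217 ± 5.57 FPKM (M against ET -0.64, edgeR adjusted p = 2.31e-06, and -0.69 and 1.00e-06 without ET replicate 3). Prdx5 rose alike in both groups, from 22.5 ± 1.41 to 94.0 ± 1.96 and 91.6 ± 5.22, and glutathione peroxidase Gpx1 fell from 274 ± 3.21 to 227 ± 9.41 and 219 ± 8.34.

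Of 13 tested transcription factors tied to oxidase genes (15 listed), 6 were higher and 7 lower in ET, and 5 higher and 7 lower in M (median log2 change -0.32 and -0.25). Irf1 fell from 7.32 ± 0.588 FPKM to 3.45 ± 0.256 in ET and 3.73 ± 0.0612 in M (SD, n = 3). Nfkb1 rose from 17.3 ± 0.457 to 22.9 ± 0.681 and 27.97 ± 0.311, and was higher in M than in ET (log2 change 0.30, edgeR adjusted p = 0.000226; 0.27 and 0.000512 without ET replicate 3). Jun and Cebpe rose in both groups (log2 change 1.92 and 1.79 for Jun, 1.07 and 0.82 for Cebpe). Spi1, the gene of PU.1, which was not among the largest changes and was added after its values were seen, fell from 101 ± 2.67 FPKM to 74.1 ± 3.68 and 72.5 ± 4.09.

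**Figure D5:**
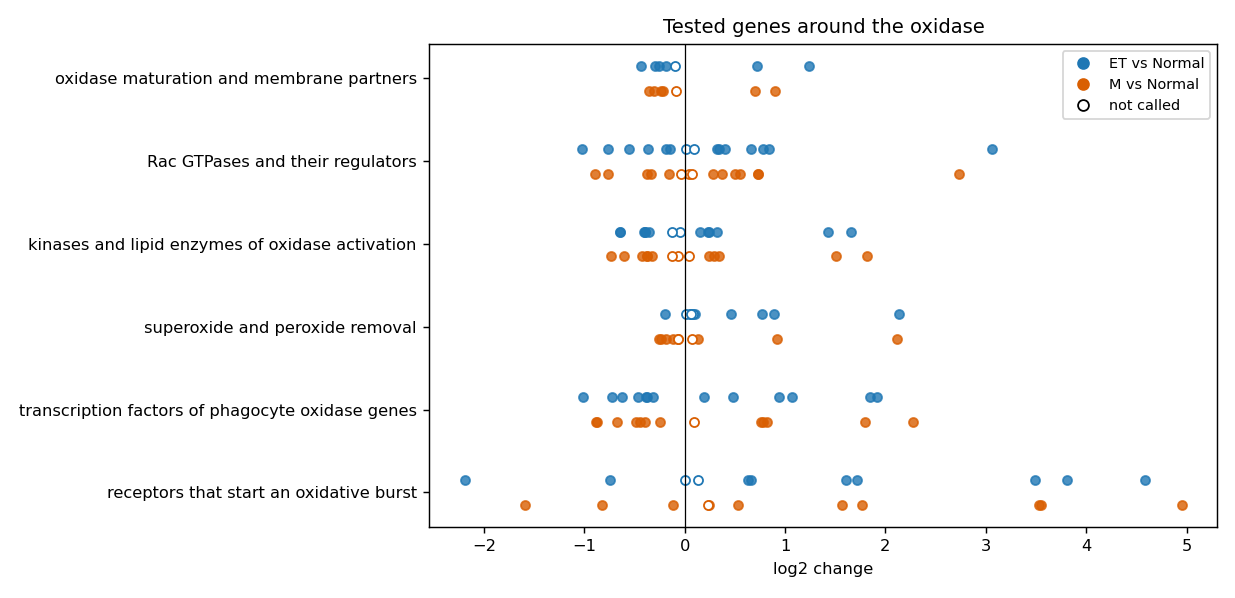
Log2 change (x axis) of each tested gene in 6 lists around the oxidase, ET against Normal and M against Normal; open points were not called, and Fpr1, at 0 counts in Normal, is not drawn. Receptors lie mostly to the right of 0, and the other 5 lists spread to both sides.

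For each member, the 3 tested genes with the most similar profile were found by the root mean square difference between centred log2 profiles over the 9 libraries, among 6944 genes with a mean FPKM of 5 or more. Cybb was nearest to Ubac2 (difference 0.0789), Mvd (0.0813) and Rhoq (0.0925). Ncf1 was nearest to Ptov1 (0.0421), Parvg (0.0535) and Dpy19l1 (0.0537). Cyba was nearest to Cd68 (0.0286), Tsg101 (0.0317) and Spg21 (0.0329), and Rac2 to Fermt3 (0.0208), Ssr1 (0.0219) and Bop1 (0.0223). Ncf4 was nearest to Snupn (0.0286), Dnajb1 (0.0479) and Tpd52l2 (0.0496). No member appeared among the 3 genes nearest to another member. The 9 libraries come from only 3 groups.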

How the data were processed

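The authors deposited a single table with a raw count and an FPKM value for each gene in each of 9 libraries. The tools named in the submitters' processing notes are cutadapt 1.9, HISAT2 2.2.1, StringTie 2.1.6, DESeq2 and edgeR, with no version for the last 2. The counting tool, strand setting and genome build are not given in the sources used here. Samples were tied to columns through their descriptions.

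The 11536 genes that reached an FPKM of 1 in 3 or more libraries entered edgeR 4.0.16 (quasi-likelihood test, TMM factors, 1 fit of 3 groups, no replicate block; R 4.3.3), with Benjamini-Hochberg adjustment over all tested genes at 0.05. SE is the log2 change divided by the square root of F. Levels are FPKM, mean ± SD of 3 libraries. The labels do not say that replicates were separate cultures, so p-values measure the spread between these libraries, which may be technical. No replicate pair agreed within counting noise (chi-square per gene at least 11.2).

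Named genes were the members, their companions, and from each list up to 4 genes called alike in both treated groups with the largest mean change and up to 2 with the smallest adjusted p between M and ET. Some genes that this rule names are not reported here. Members and lists were chosen with earlier results of these data known. Alternatives were a replicate block, DESeq2 1.42.0, limma 3.58.1 on log2 FPKM with pseudocounts of 1 and 0.1, other factors and filters, fits of 6 libraries, and leaving out each library. A restriction of the lists by their level in Normal was added after the data were seen. On simulated data with 200 changed genes among 11536, the test for M against ET recovered 36% of 1.25-fold and 90% of 1.5-fold changes, with 10.3% of calls false. This was a single draw that also held larger changes and none smaller. Fewer genes were changed in it than were called between M and ET, so these rates do not carry over to the data.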

Additional observations from a re-analysis of the deposited data

How the results depend on the processing

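In ET and M against Normal, Cybb, Cyba, Ncf1 and Rac2 kept direction and call under all 18 alternatives. Ncf4 in ET was called with total counts only (log2 change -0.16). Ncf4 in M ranged from -0.25 to -0.095 when each library was left out, and its call ended in 4 of those 9 fits.

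In M against ET, Cyba was called with DESeq2 (-0.14) and total counts only (-0.15), and ranged from -0.18 to -0.11 without single libraries. The Ncf1 call ended with limma (0.13 with either pseudocount), relative log expression factors (0.13), total counts only (0.13), filterByExpr (0.14), no filter (0.14) and fits of 6 libraries (0.14), and in 7 of 9 fits without 1 library (0.11 to 0.16). Rac2 changed sign with total counts only (-0.000881) and without ET replicate 3 (-0.015) or M replicate 2 (-0.0018), over a range up to 0.024 without single libraries. Genes called higher and lower, 573 and 475, became 895 and 787 with DESeq2, 345 and 270 with no filter, 339 and 421 with limma and a pseudocount of 0.1, and 265.0 to 1121 and 244 to 707 without single libraries. The cause of these differences was not tested.

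With the replicate block, 508 and 414 genes were called between M and ET, and no call of a member changed (Cybb 0.26). The numbers are not said to mark shared cultures, deviations of libraries with the same number correlated at -0.0929 to 0.0551, and 1 of 9 libraries correlated best with its own number in both other groups. With 3 libraries a group, the changes of Cyba and Ncf1 between M and ET were called under some settings and not others. How well changes of that size are detected was not simulated.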

Other observations

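Ncf4 and Rac2 lie near each other on chromosome 15, on opposite strands with 296586 bases between them, a region looked at after the members' values were seen. Between them the table lists 12 genes, of which 5 were tested and all 5 were called in both treated groups against Normal, where 35.0% of all tested genes were called higher and 35.2% lower in ET, and 35.5% and 34.5% in M, so the count says little about the region. The receptor chain genes Csf2rb2 and Csf2rb, for beta subunits of cytokine receptors, rose. Csf2rb2 had FPKM of 1.10 ± 0.233 (Normal), 4.20 ± 0.225 (ET) and 3.33 ± 0.409 (M; SD, n = 3). Csf2rb went from 4.07 ± 0.251 to 6.75 ± 0.181 and 7.79 ± 0.176, and was higher in M than in ET (log2 change 0.22, edgeR adjusted p = 0.0333; 0.23 and 0.0286 without ET replicate 3). Kctd17 and C1qtnf6 rose as well (log2 change 0.62 and 0.66 in ET, 0.65 and 0.55 in M), while Mpst, a sulfurtransferase, fell (-0.41 and -0.68). Neighbours of Rac2 and Ncf4 thus moved in both directions.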
